A study of Mus musculus with 4 samples.

Results

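Chemokines and their receptors were examined in bulk liver tumours of mice with and without a liver-specific deletion of Tfrc, the gene for transferrin receptor 1. Members were the protein-coding genes of the deposited count table whose GENCODE M21 symbols belong to the Ccl, Cxcl, Xcl1 and Cx3cl1 ligands, with Pf4 and Ppbp, or to the Ccr, Cxcr, Xcr1, Cx3cr1 and Ackr receptors. The rule took 69 of 55487 identifiers, which carry 64 symbols because copies of Ccl19, Ccl21a, Ccl21b and Ccl27 are annotated more than once. They comprise 30 CC ligands, 14 CXC ligands, 2 ligands of the XC and CX3C classes, 19 signalling receptors and 4 atypical receptors. Of these, 39 passed the filter on low counts and were tested, while 25 had counts but stayed below it and 5 had none in any library.

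The study asked how Tfrc shapes the surroundings of tumour cells. Per the labels, tumours came from an Alb-cre H11-myc model, in which a c-Myc transgene at the H11 locus gives spontaneous hepatocellular carcinoma (HCC), and 2 mice per group were sampled as wild type or Tfrc knockout. Alb-cre acts in hepatocytes, so leukocytes, endothelium and stromal cells are outside the deletion. The labels name no deleted exons, age or sex and no further treatment, and whether each wild type mouse carried Cre is not stated. Values are from poly(A) RNA of whole tumour tissue, and a bulk value cannot tell fewer cells of a type from less RNA per cell. Levels of a gene between libraries are given as CPM (TMM-scaled counts relative to library size). Levels between genes, and sums and shares over members, are given as the deposited FPKM, which also divides by gene length.

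Total counts lay between 15918349 and 17052943 per library. Tfrc counts were 8441 and 3603 in the wild type libraries, against 5407 and 3244 in the others. They overlapped, a whole-gene count does not check a deletion whose exons are not named, and the second group is called the libraries labelled knockout. Wild type replicate 2 stood apart on the first principal component (86.6, against -38.5 to -11.2 in the other libraries). It also held far more of the Kupffer cell marker list, with a sum of 167 CPM against 14.1 to 22.7 CPM elsewhere. Hepatocyte markers were present in every library, with sums of 14400 to 47100 CPM. Mitochondrial transcripts were 8.69% and 4.13% of the wild type counts, against 9.8% and 16.6% in those labelled knockout, and their part in the results was not tested.

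Chemokines are small secreted proteins that bind heparan sulfate on cell surfaces, form local gradients and steer leukocytes through G protein-coupled receptors. The classes are named for the spacing of their first cysteines. CXC ligands with an ELR motif attract neutrophils through Cxcr2, interferon-inducible CXC ligands attract activated T and NK cells through Cxcr3, and CC ligands act largely on monocytes, macrophages and lymphocytes. Atypical receptors bind chemokines without classical G protein signalling and remove or transport them. In liver, ligands come from hepatocytes, Kupffer cells, stellate cells and sinusoidal endothelium.

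The ligands that led the signal differed between libraries. By FPKM the highest member was Cxcl1 in wild type replicate 1 (20.7), Pf4 in wild type replicate 2 (34.0), Cxcl9 in knockout replicate 1 (60.6) and Cxcl1 again in knockout replicate 2 (38.6). Summed over all 69 members, FPKM was 186 and 185 in wild type, against 225 and 157 in knockout, and the totals overlapped. The make-up within those totals was less alike. Cxcl10, a ligand of Cxcr3, made up 5.96% and 3.14% of the sum in wild type and 10.2% and 9.55% in knockout. Pf4 made up 8.59% and 18.4% against 2.9% and 1.74%. Receptors were a small part, at 9.43 to 21.9 FPKM summed over the 19 signalling receptors.

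**Figure D1:**
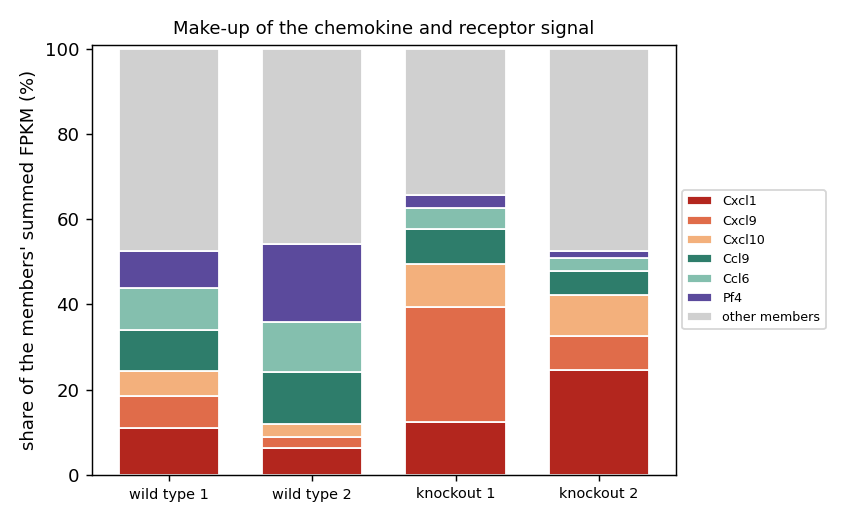
Share of the summed FPKM of all 69 members (y axis, percent) taken by 6 leading ligands and by the other members, 1 bar per library. The Pf4 band is 8.59% and 18.4% in the wild type libraries and 2.9% and 1.74% in those labelled knockout, while Cxcl9 reaches 27% in knockout replicate 1 and stays at 8.02% or less in the other libraries.

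No chemokine or receptor passed the threshold of the comparison of knockout with wild type. With edgeR's quasi-likelihood test, 0 of 39 tested members were higher and 0 lower at an adjusted p of 0.05, against 0% of all 16310 tested genes in each direction. The smallest adjusted p of a member was 0.545. At an unadjusted p under 0.05, 5 members were higher (12.8%, against 3.95% of all tested genes) and 6 lower (15.4%, against 4.35%). These include Ackr4 among the higher and Ppbp and Ccr3 among the lower, which passed the filter only through the group where they were high. DESeq2 called 0 members higher and 2 lower, Pf4 and Ppbp, against 0.386% and 0.521% of all tested genes. The 10 members with the smallest unadjusted p were Pf4, Ackr3, Ackr4, Cxcl10, Cxcl1, Ppbp, Ccr3, Ccl6, Cxcl9 and Ccl2.

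Separate groups were frequent among members and in the table as a whole. Both knockout libraries lay above both wild type libraries in 11 tested members (28.2%, against 21.9% of all tested genes) and below them in 14 (35.9%, against 20.1%). The median log2 fold change was -0.16 over tested members and 0.01 over all tested genes, with 19 members positive (against 50.4% of all tested genes) and 20 negative. A log2 fold change of 1 or more was seen in 6 members (against 7.06%) and of -1 or less in 9 (against 6.02%). For 21 of the 39 members the larger difference between replicates of a group exceeded the difference between the groups, which held for 72.7% of all tested genes. The filter needed 2 libraries above its level, of either group. Both knockout libraries but not both wild type libraries reached it for 5 members (Ackr4, Ccl22, Cxcl13, Cxcr3 and Cxcr6). All of these but Ackr4 also reached it in 1 wild type library. Both wild type libraries and no knockout library reached it for 4 (Ccl24, Ppbp, Ccr10 and Ccr3). Ackr4 and these 4 could enter the test, and the counts above, only by being high in that group.

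**Figure D2:**
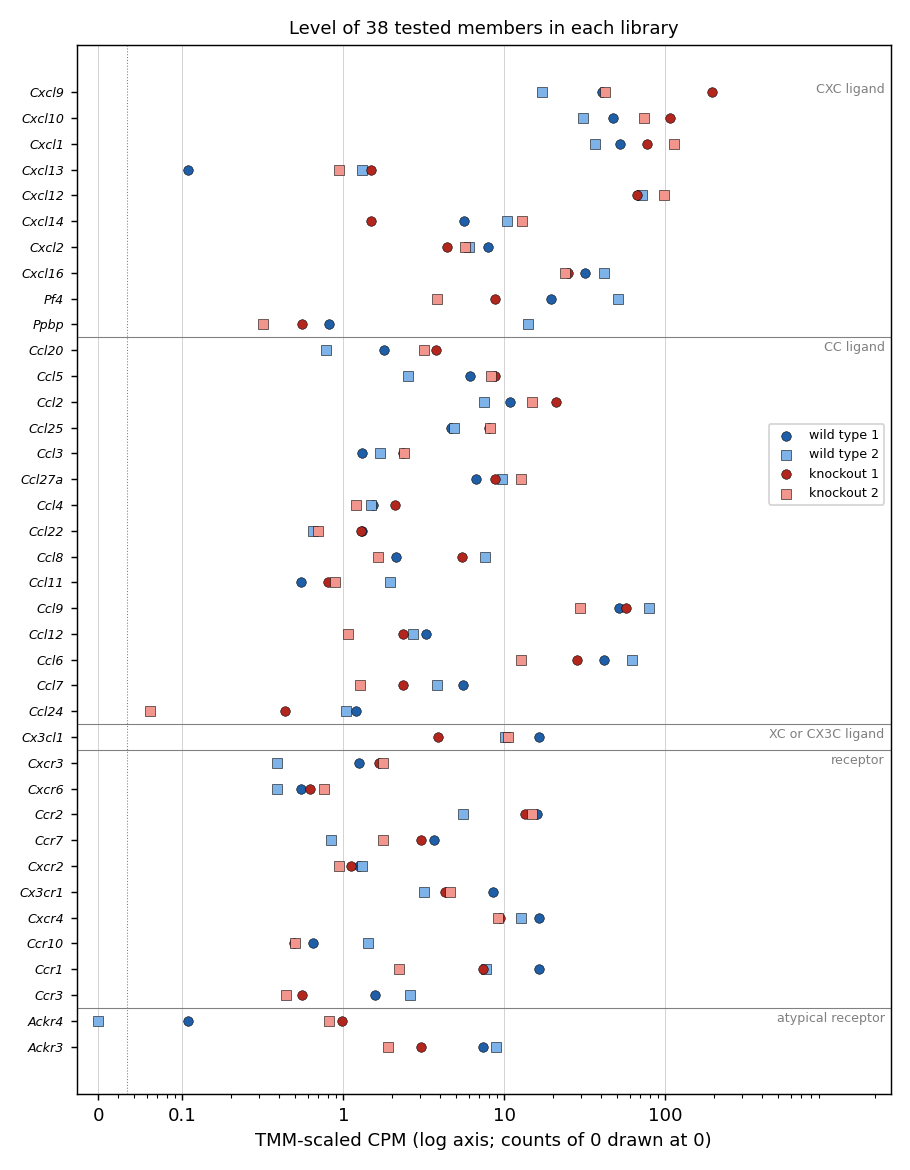
TMM-scaled CPM (x axis, log scale) of 38 tested members in each of the 4 libraries, grouped by role and ordered within a role by fold change. Red points (libraries labelled knockout) lie right of blue points for Cxcl10 and Cxcl1 and left of them for Pf4, Ccl6 and Ackr3, while the colours mix for Cxcl12 and Cx3cr1.

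**Figure D3:**
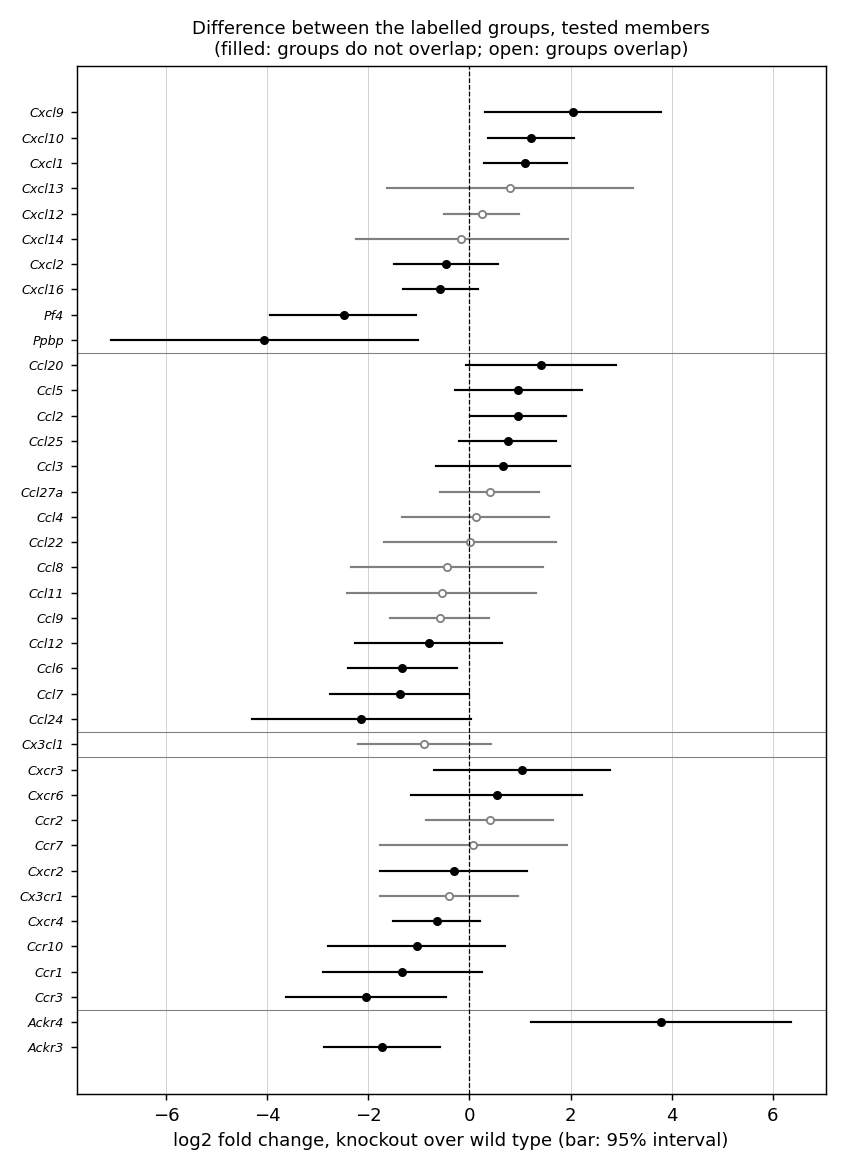
Log2 fold change of the libraries labelled knockout over wild type (x axis) with its 95% interval for the same 38 tested members, in the same order. The interval lies above 0 for Cxcl9, Cxcl10, Cxcl1, Ccl2 and Ackr4 and below 0 for Pf4, Ppbp, Ccl6, Ccl7, Ccr3 and Ackr3, before adjustment over 16310 genes.

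Among CXC ligands the inducible inflammatory genes Cxcl10, Cxcl9 and Cxcl1 stood higher in the libraries labelled knockout and the platelet chemokine genes Pf4 and Ppbp lower. Of 10 tested CXC ligands, 3 separated upward and 4 downward (against 21.9% and 20.1% of all tested genes), and 0 passed in either direction. At an unadjusted p under 0.05, 3 were higher and 2 lower (against 3.95% and 4.35%). Of the lower, Ppbp passed the filter only through the wild type libraries. RefSeq promoter windows (GRCm38.p6, 250 bases before to 50 after the start, 5′ to 3′ on the gene's strand) are printed for Cxcl10, Cxcl9, Cxcl1 and Cxcl2, because the first 3 stood higher in both knockout libraries and Cxcl2, a close relative and neighbour of Cxcl1, stood lower. Capitals mark matches on either strand to the interferon-stimulated response element core (TTTC, any 2 bases, TTTC) or to the NF-kappaB consensus. The latter was searched as GGG, A or G, any 2 bases, 2 of C or T, and CC. The third motif searched, the gamma-activated site core TTCNNNGAA, had no match in these 4 windows.
Cxcl10, chr5:92348840-92349139, minus strand: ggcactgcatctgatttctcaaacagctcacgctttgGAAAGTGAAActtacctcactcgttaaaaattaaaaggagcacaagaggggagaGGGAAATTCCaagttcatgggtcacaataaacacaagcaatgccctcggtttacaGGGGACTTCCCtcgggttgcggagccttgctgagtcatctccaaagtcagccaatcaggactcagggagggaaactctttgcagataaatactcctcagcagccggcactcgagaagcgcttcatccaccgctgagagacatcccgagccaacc
Cxcl9, chr5:92328030-92328329, minus strand: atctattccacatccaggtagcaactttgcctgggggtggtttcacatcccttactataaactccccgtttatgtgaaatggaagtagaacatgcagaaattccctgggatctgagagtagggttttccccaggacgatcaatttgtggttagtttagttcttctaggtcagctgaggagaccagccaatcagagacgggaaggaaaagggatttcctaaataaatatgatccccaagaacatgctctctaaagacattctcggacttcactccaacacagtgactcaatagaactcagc
Cxcl1, chr5:90890995-90891294, plus strand: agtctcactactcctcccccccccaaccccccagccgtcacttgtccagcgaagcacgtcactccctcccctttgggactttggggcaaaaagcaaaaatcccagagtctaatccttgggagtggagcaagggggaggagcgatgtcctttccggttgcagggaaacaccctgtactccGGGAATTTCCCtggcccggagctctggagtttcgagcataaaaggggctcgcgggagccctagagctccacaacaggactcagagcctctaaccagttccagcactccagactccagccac
Cxcl2, chr5:90903649-90903948, plus strand: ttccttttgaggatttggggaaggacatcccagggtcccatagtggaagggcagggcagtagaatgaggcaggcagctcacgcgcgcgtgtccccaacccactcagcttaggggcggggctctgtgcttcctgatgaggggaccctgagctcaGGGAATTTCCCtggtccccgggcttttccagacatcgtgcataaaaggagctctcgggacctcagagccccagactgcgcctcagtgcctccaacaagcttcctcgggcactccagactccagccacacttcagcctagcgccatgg

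The Cxcl10 window held 1 response element core, at bases -213 to -204 from the start, and 3 NF-kappaB matches, of which 2 overlap each other at bases -104 to -94. Cxcl1 and Cxcl2 each held 1 such overlapping pair, at bases -71 to -61 and -97 to -87, with the same letters. The Cxcl9 window had no exact match to any of the 3 motifs, and near matches were not searched. Over all 32851 windows of this length in the RefSeq table, 3.44% held the response element core, 8.46% the NF-kappaB consensus and 8.3% the gamma-activated site core. Of the 55 windows of 48 member symbols, 3, 12 and 4 did (5.45%, 21.8% and 7.27%). The NF-kappaB consensus was also present for Ccl20 and Ccl9 and for the receptors Ccr1 and Ccr3, so windows with a match belonged to members of either direction.

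Cxcl10 (ENSMUSG00000034855, chromosome 5, 92346638 to 92348889, mm10), an interferon-inducible attractant of T cells, had 47.0 and 30.7 CPM in wild type replicates 1 and 2, against 107 and 73.8 CPM in the knockout libraries. Both knockout libraries were above both wild type libraries. Its mean was 38.8 ± 11.6 CPM against 90.3 ± 23.4 CPM (SD, n = 2 each), a log2 fold change of 1.22 (SE 0.36, 95% interval 0.37 to 2.06, edgeR adjusted p = 0.547).

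Cxcl9 (chromosome 5, 92321347 to 92328079), induced by interferon gamma and bound by the same receptor, had 40.2 and 17.2 CPM in wild type and 194 and 42.3 CPM in knockout. Knockout replicate 1 was far above the other libraries, and knockout replicate 2 exceeded wild type replicate 1 only narrowly, with fewer raw counts (672 against 740). The log2 fold change was 2.04 (SE 0.73, adjusted p = 0.572), and without knockout replicate 1 it was 0.53. Cxcr3, the receptor of both ligands, had 23 and 6 counts in wild type, against 27 and 28 in knockout, for a log2 fold change of 1.04 (SE 0.73) that was 2.08 if wild type replicate 1 was left out and 0.45 if wild type replicate 2 was. The related ligand gene Cxcl11 is annotated as a polymorphic pseudogene, outside the rule, and had 208 and 9 counts in wild type, against 316 and 301 in knockout. In the T cell marker list, 10 of 13 tested genes were positive, with sums of 17 to 37.6 CPM in wild type and 31.5 to 35.4 CPM in knockout. In the NK cell list 5 of 6 were, with sums of 7 to 13.4 and 9.25 to 14.8 CPM. Their part in the Cxcl9 and Cxcl10 values was not tested.

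Cxcl1 (chromosome 5, 90891241 to 90893115), an ELR ligand that draws neutrophils, had 52.2 and 36.6 CPM in wild type and 77.2 and 113 CPM in knockout. The groups did not overlap, with a log2 fold change of 1.10 (SE 0.35, 95% interval 0.28 to 1.92, adjusted p = 0.547). Cxcl2, which lies 10.8 kb away and acts on the same receptor, had 7.88 and 6.03 CPM in wild type and 4.43 and 5.67 CPM in knockout, lower in both knockout libraries (edgeR log2 fold change -0.46 with SE 0.44, adjusted p = 0.779). Cxcl1 therefore made up more of the counts of this pair. Its share was 86.9% and 85.8% in wild type (Wilson 95% intervals 84.8 to 88.8 and 83.0 to 88.3) and 94.6% and 95.2% in knockout (93.2 to 95.7 and 94.2 to 96.1). A share within a library does not depend on library scaling, and its interval covers counting error only. The pair was chosen after its values were seen, and with 2 libraries per group the smallest two-sided p of an exact permutation is 0.333.

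Cxcr2, the neutrophil receptor for these ligands, had 23 and 20 counts in wild type, against 18 and 15 in knockout (log2 fold change -0.31). Cxcr1 had at most 6 counts in a library, and the ELR ligand genes Cxcl5 and Cxcl3 were not tested. Cxcl5 had 5 and 18 counts in wild type, against 2 and 8 in knockout. Cxcl3 had 65 counts in wild type replicate 2 and 4, 5 and 2 in the others, so its signal came from 1 library. Neutrophil markers were not higher where Cxcl1 was. S100a8, a calprotectin subunit of neutrophils, had 5.22 and 19.3 CPM in wild type and 1.48 and 1.07 CPM in knockout, all 8 tested genes of the list were negative, and Ly6g had 0 counts. Sums over that list were 1020 and 2750 CPM in wild type and 1130 CPM in each knockout library, mostly from Lcn2, which hepatocytes also make.

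Pf4 (ENSMUSG00000029373, chromosome 5, 90772435 to 90773383), platelet factor 4, which mouse tissue macrophages also transcribe, had 19.5 and 51.1 CPM in wild type and 8.68 and 3.84 CPM in knockout. Both knockout libraries were lower, and wild type replicate 2 was well above wild type replicate 1. The mean was 35.3 ± 22.4 CPM against 6.26 ± 3.42 CPM, a log2 fold change of -2.49 (SE 0.61, 95% interval -3.94 to -1.05, edgeR adjusted p = 0.545, DESeq2 adjusted p = 7.75e-03). Leaving out wild type replicate 2 gave -1.63. Ppbp, the precursor of a platelet neutrophil attractant 2.37 kb from Pf4, had 15 and 216 counts in wild type, against 9 and 5 in knockout. Wild type replicate 2 alone was high, and without it the log2 fold change moved from -4.06 (SE 1.28) to -0.90. DESeq2 called Ppbp with an adjusted p of 0.0292 and edgeR did not (0.547).

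Platelet markers gave no uniform picture beside Pf4 and Ppbp. Of 6 tested genes of the list, 3 were negative, with sums of 29 and 32.6 CPM in wild type and 11.8 and 16.6 CPM in knockout. By mean CPM the list's highest gene was Itgb3, the beta-3 integrin, at 18.3 and 18.2 CPM against 4.37 and 2.27 CPM. Its platelet partner chain gene Itga2b, named after its values were seen, had 2.66 and 1.88 CPM against 2.03 and 4.6 CPM, so those groups overlapped. The platelet collagen receptor gene Gp6 had 0 counts in all libraries. All 5 tested erythroid markers separated downward (against 20.1% of all tested genes), with sums of 955 and 2170 CPM in wild type and 211 and 150 CPM in knockout. The part of platelets, blood or macrophages in the Pf4 and Ppbp values was not tested.

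Cxcl12, Cxcl16 and Cxcl14 had fold changes nearer to 0. Cxcl12, the homeostatic ligand of Cxcr4 made by stromal and sinusoidal endothelial cells, had 67.6 and 71.4 CPM in wild type and 66.5 and 98.2 CPM in knockout. The groups overlapped, and the log2 fold change was 0.25 (95% interval -0.50 to 0.99, SE 0.32, adjusted p = 0.842). Cxcl16, the membrane-bound ligand of Cxcr6, had 31.5 and 41.3 CPM in wild type and 24.8 and 23.9 CPM in knockout (edgeR log2 fold change -0.58 with SE 0.31, adjusted p = 0.639). Zmynd15 overlaps Cxcl16 on the opposite strand with 122 to 252 counts, so some of its 379 to 637 counts are uncertain. Cxcl14, with 5.65 and 10.4 CPM in wild type and 1.48 and 12.9 CPM in knockout, had its lowest and highest value in the same group (edgeR log2 fold change -0.16 with SE 0.88, adjusted p = 0.968). Cxcl13, the B cell attractant, had 2 and 20 counts in wild type, against 24 and 15 in knockout, while Cxcl15 had none and Cxcl17 had 1 count in all.

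CC ligands divided in direction. The monocyte attractant gene Ccl2 and Ccl20, Ccl5, Ccl25 and Ccl3 stood higher in the libraries labelled knockout, and Ccl6, Ccl7, Ccl12 and Ccl24 stood lower. Of 15 tested CC ligands 5 separated upward and 4 downward (against 21.9% and 20.1% of all tested genes), and the median log2 fold change was 0.02. None passed with edgeR or DESeq2, and 1 was higher and 2 lower at an unadjusted p under 0.05 (against 3.95% and 4.35%). Of the 4 that separated downward, Ccl24 passed the filter only through the wild type libraries.

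Ccl2 (ENSMUSG00000035385, chromosome 11, 82035571 to 82037453), the main ligand of Ccr2, had 10.9 and 7.46 CPM in wild type and 20.9 and 14.9 CPM in knockout. The groups did not overlap (edgeR log2 fold change 0.96 with SE 0.40, adjusted p = 0.597). Ccl7, another Ccr2 ligand 8.26 kb downstream at 82045712 to 82047525, had 102 and 59 counts in wild type, against 38 and 20 in knockout, below wild type in both (edgeR log2 fold change -1.38 with SE 0.58, adjusted p = 0.6). Within the pair, the Ccl2 share of counts was 66.2% and 66.1% in wild type (Wilson intervals 60.7 to 71.3 and 58.8 to 72.7) and 89.9% and 92.2% in knockout (86.5 to 92.6 and 88.2 to 94.9). The Ccl2 to Ccl7 ratio was thus 1.96 and 1.95 in the wild type mice and 8.95 and 11.8 in the others. This pair, too, was chosen after its values were seen.

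**Figure D4:**
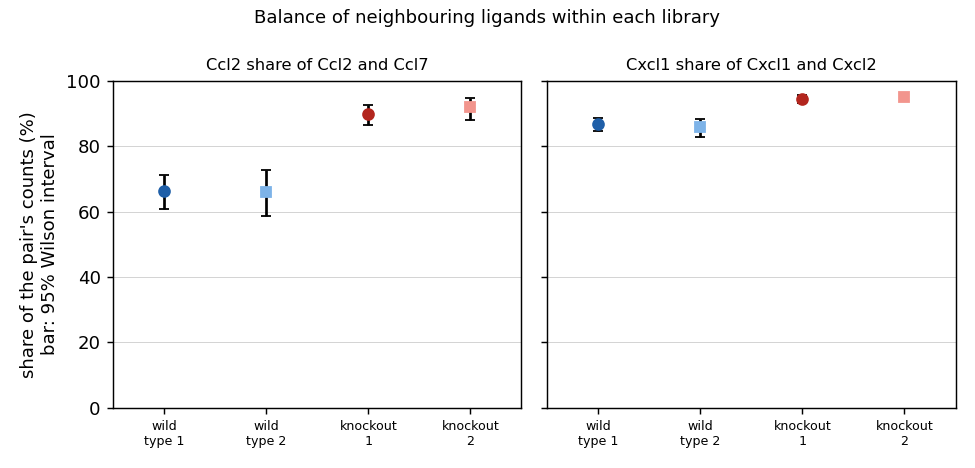
Share of Ccl2 in the summed counts of Ccl2 and Ccl7 (left) and of Cxcl1 in those of Cxcl1 and Cxcl2 (right), in percent with 95% Wilson intervals, 1 point per library. Ccl2 takes 66.1% to 66.2% in the wild type libraries and 89.9% to 92.2% in those labelled knockout, and Cxcl1 takes 85.8% to 86.9% and 94.6% to 95.2%.

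Ccl12 and Ccl8 are further ligands of that cluster. Ccl12 had 60 and 42 counts in wild type, against 38 and 17 in knockout (log2 fold change -0.81, which was -1.51 without knockout replicate 1 and -0.35 without knockout replicate 2). Ccl8 had 39 and 117 counts against 89 and 26, so each group held a high and a low library. Ccr2 itself, the receptor of inflammatory monocytes, had 15.9 and 5.51 CPM in wild type and 13.5 and 14.8 CPM in knockout. Wild type replicate 2 was the low library, and without it the log2 fold change turned from 0.40 (SE 0.53, adjusted p = 0.849) to -0.17.

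Ccl6, which mouse macrophages and other myeloid cells make, had 41.5 and 61.7 CPM in wild type and 28.4 and 12.7 CPM in knockout. The knockout libraries were lower in both cases (edgeR log2 fold change -1.33 with SE 0.45, 95% interval -2.40 to -0.25, adjusted p = 0.554), with values of -2.05 without knockout replicate 1 and -0.86 without knockout replicate 2. Its neighbour Ccl9, 9.24 kb away and a fellow ligand of Ccr1, had 51.4 and 79.0 CPM in wild type and 57.1 and 29.4 CPM in knockout, so the groups overlapped (edgeR log2 fold change -0.59 with SE 0.41, adjusted p = 0.702). Ccr1, found on monocytes, macrophages and neutrophils, had 16.3 and 7.65 CPM in wild type and 7.33 and 2.20 CPM in knockout. Its groups separated by a narrow margin, and only after TMM scaling. Wild type replicate 2 had 118 raw counts and knockout replicate 1 had 119. Its log2 fold change of -1.33 (edgeR, SE 0.66, adjusted p = 0.633) ranged from -2.46 without knockout replicate 1 to -0.70 without knockout replicate 2.

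Most macrophage markers stood lower beside Ccl6, Ccl7 and Ccr1. Of 16 tested genes of the list, 14 were negative and 11 separated downward (against 20.1% of all tested genes). Csf1r, the growth factor receptor of macrophages, had 103 and 92.4 CPM in wild type and 43.5 and 30 CPM in knockout. Sums over the list were 1600 and 2460 CPM in wild type and 1810 and 1530 CPM in knockout, with Spp1 and Lyz2 as the largest members, and Spp1 also marks bile duct cells. None of the 16 genes had 0 counts in all libraries, and the part of macrophage content in these values was not tested.

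The CC ligands of lymphocytes and dendritic cells were mostly low. Ccl5, made by T and NK cells and an attractant of T cells, had 6.09 and 2.53 CPM in wild type and 8.68 and 8.25 CPM in knockout (edgeR log2 fold change 0.97 with SE 0.53, adjusted p = 0.641). The knockout libraries were alike and above both wild type libraries, and the value was 1.70 if wild type replicate 1 was left out and 0.47 if wild type replicate 2 was. Ccl3 and Ccl4, the macrophage inflammatory proteins, had 24 to 38 and 19 to 34 counts per library, and Ccl3 had a log2 fold change of 0.66. Ccl20, the ligand of Ccr6 on Th17 cells and B cells, had 33 and 12 counts in wild type, against 61 and 50 in knockout (edgeR log2 fold change 1.41 with SE 0.63, adjusted p = 0.614; 0.94 without wild type replicate 2). Ccr6 itself was at 0 counts in either wild type library and at 8 in each knockout library. With 3 counts per library as the floor for wild type, the knockout mean was 2.78-fold that floor. That ratio leaves out counting error in the knockout counts, and the gene was too low to be tested.

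Eotaxins and their receptor were at low counts, and Ccl24 and Ccr3 passed the filter only through the wild type libraries. Ccl24, eotaxin-2 of macrophages, had 22 and 16 counts in wild type, against 7 and 1 in knockout (edgeR log2 fold change -2.14 with SE 0.92, adjusted p = 0.606; -4.02 without knockout replicate 1 and -1.36 without knockout replicate 2). Ccr3, the eotaxin receptor of eosinophils, had 29 and 40 counts in wild type, against 9 and 7 in knockout. All 4 libraries kept the groups apart, with a log2 fold change of -2.05 (SE 0.67, 95% interval -3.63 to -0.46, adjusted p = 0.547). Ccl11, eotaxin-1, had 10 and 30 counts against 13 and 14, and Ccl26 had none. In the list of mast cell, basophil and eosinophil markers, Prg2, Fcer1a and Mcpt8 had 0 counts in all libraries and 2 of 10 genes could be tested.

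Most homeostatic CC ligands were too low to be tested. Ccl25, the gut homing ligand of Ccr9, had 4.68 and 4.86 CPM in wild type and 8.0 and 8.12 CPM in knockout, with replicates that nearly coincided (edgeR log2 fold change 0.76 with SE 0.41, adjusted p = 0.639). It overlaps Elavl1 on the opposite strand, which had 194 to 1250 counts against 75 to 130 for Ccl25, so these counts are uncertain. Ccl27a, a skin homing ligand of Ccr10, had 6.69 and 9.60 CPM against 8.80 and 12.7 CPM, overlapping between groups (edgeR log2 fold change 0.40 with SE 0.41, adjusted p = 0.799), and shares its span with Il11ra1 on the opposite strand. Ccr10 had 8 to 22 counts, uncertain because Cntnap1 overlaps it on the opposite strand with 255 to 454 counts. The Ccr7 ligands Ccl19 and Ccl21 exist in near-identical copies whose reads may be split. The Ccl21b copy on an unplaced scaffold had 60 counts in knockout replicate 2, 3 in wild type replicate 2 and 0 in the others, and Ccl19 had 11 in wild type replicate 2, 4 in knockout replicate 2 and 0 in the others. The other Ccl21 copies reached at most 21 counts in a library and Ccl27b, Ccl28, Ccl1 and the annotated Ccl27 copies at most 14. Ccr7, which guides dendritic cells and naive T cells, had 67 and 13 counts in wild type, against 49 and 28 in knockout, and the dendritic cell ligands Ccl22 and Ccl17 had at most 24 and 7 counts in a library.

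Receptors made up a smaller part of the summed FPKM than ligands did, and Cxcr4 and Ccr1 had the highest mean FPKM of the signalling receptors, at 4.45 and 3.07. Of 11 tested, 2 separated upward and 5 downward (against 21.9% and 20.1% of all tested genes), with a median log2 fold change of -0.31. With edgeR or DESeq2 0 passed in either direction, and 0 were higher and 1 lower at an unadjusted p under 0.05 (against 3.95% and 4.35%). The lower receptor at that unadjusted p was Ccr3. Of the 5 that separated downward, Ccr3 and Ccr10 passed the filter only through the wild type libraries, where they were high. Cxcr4, the receptor of Cxcl12 on leukocytes and tumour cells, had 16.4 and 12.6 CPM in wild type and 9.42 and 9.07 CPM in knockout. The knockout values were nearly equal and below both wild type values (edgeR log2 fold change -0.65 with SE 0.37, adjusted p = 0.652). Cx3cr1, a receptor of monocytes and resident macrophages, had 8.48 and 3.18 CPM against 4.25 and 4.60 CPM, with both knockout values between those of wild type. Its log2 fold change turned from -0.40 (SE 0.57, adjusted p = 0.857) to 0.44 without wild type replicate 1, and its long span overlaps Gorasp1 and Csrnp1 on the same strand. Its ligand gene Cx3cl1, fractalkine, had 16.5 and 10.1 CPM in wild type and 3.88 and 10.5 CPM in knockout, so knockout replicate 1 alone was low (edgeR log2 fold change -0.89 with SE 0.55, adjusted p = 0.674). Cxcr6 had 6 to 12 counts, uncertain because Fyco1 overlaps it on the opposite strand with 396 to 596 counts. Ccr4, Ccr8, Ccr9, Ccr1l1, Cxcr1, Cxcr5 and Xcr1 had at most 17 counts in any library and were not tested. Xcl1, the ligand of Xcr1 on cross-presenting dendritic cells, had 13 and 0 counts in wild type, against 7 and 6 in knockout.

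Of the 4 atypical receptors, Ackr3 and Ackr4 were tested, and Ackr4 passed the filter only through the knockout libraries. Ackr3, which scavenges Cxcl12, had 7.39 and 8.89 CPM in wild type and 3.02 and 1.89 CPM in knockout (ENSMUSG00000044337, chromosome 1, 90203980 to 90216751). Replicates were close in each group and the groups stood apart, with means of 8.14 ± 1.06 CPM and 2.45 ± 0.798 CPM and a log2 fold change of -1.73 (SE 0.48, 95% interval -2.87 to -0.58, adjusted p = 0.547). Leaving out any 1 library gave values from -2.13 to -1.43. Endothelial markers stood on the same side in 8 of 10 tested genes, with sums of 195 and 264 CPM in wild type and 169 and 146 CPM in knockout. Of all tested genes 50.4% were positive. The macrophage list had 14 of 16 negative and the T cell list 3 of 13. The part of these cells in the Ackr3 values was not tested. Ackr4, which scavenges Ccl19, Ccl21 and Ccl25, had 2 and 0 counts in wild type, against 16 and 13 in knockout. The summed counts of 29 against 2 correspond to a ratio of 15.3 with an exact 95% counting interval of 3.86 to 132 (edgeR log2 fold change 3.79 with SE 1.09, adjusted p = 0.547). Acad11 lies across Ackr4 on the opposite strand with 1473 to 2278 counts, so the Ackr4 counts and their ratio are uncertain beyond that interval. Ackr2, the scavenger of inflammatory CC ligands, had 34 counts in wild type replicate 2 and 5, 5 and 2 elsewhere, and Ackr1 had at most 4.

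**Figure D5:**
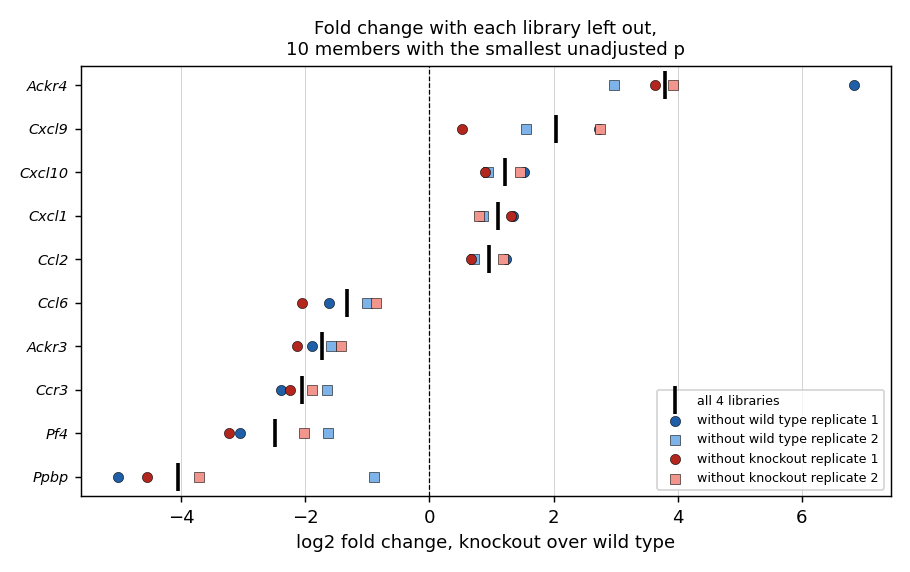
Log2 fold change (x axis) of the 10 members with the smallest unadjusted p, from all 4 libraries (black bar) and with each library left out in turn (coloured points). Every point keeps the sign of its black bar. The groups of all 10 members do not overlap, so leaving out a library could hardly turn a sign, and the kept signs do not measure stability. Ppbp moves to -0.90 without wild type replicate 2, Cxcl9 to 0.53 without knockout replicate 1 and Ackr4 to 6.84 without wild type replicate 1.

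Genes that act with chemokines but are not of the family were read from lists, and 0 of them passed in either direction by edgeR. Among 40 tested genes of receptor signalling, 30 were negative and 17 separated downward, against 20.1% of all tested genes, with a median log2 fold change of -0.31. DESeq2 called 2 lower, Rgs2 among them (against 0.521%), and 1 was higher and 4 lower at an unadjusted p under 0.05 (against 3.95% and 4.35%). Rgs2, which limits G protein signalling, had 20.9 and 53.6 against 9.05 and 9.95 CPM, and Tiam1, an activator of Rac, had 1.2 and 1.17 against 6.03 and 4.09 CPM. Of 14 genes of other chemoattractants and their receptors, 12 were negative (median -0.77), with Lgals3, C5ar1 and Cmklr1 at -0.91, -0.97 and -1.26. Among 15 genes of chemokine retention and processing 12 were negative (median -0.26), and Mmp2, a protease that trims chemokines, had 12.6 and 14.1 against 6.10 and 5.67 CPM.

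Upstream inducers, 20 of which were tested, had 11 positive and 9 negative members and a median log2 fold change of 0.06, with 1 higher and 1 lower at an unadjusted p under 0.05 (against 3.95% and 4.35% of all tested genes). Stat2, which carries type I interferon signals, had 48.7 and 22.1 CPM in wild type and 91.1 and 89.6 CPM in knockout (edgeR log2 fold change 1.35 with SE 0.42, adjusted p = 0.547). Relb, a subunit of noncanonical NF-kappaB, had 31.7 and 36.6 against 15.0 and 18.9 CPM, and Hif1a had a log2 fold change of 0.68. The gene for interferon gamma, Ifng, had 2 counts in wild type replicate 1 and knockout replicate 2 and 0 in the others, so a difference was not detectable at this depth.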

How the data were processed

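Poly(A) RNA of tumour tissue was measured in 2 wild type libraries and 2 labelled knockout, each from a separate mouse. The authors deposited raw read counts and FPKM per gene (fragments scaled by gene length and library size), and the submitters' processing notes name HISAT2, SAMtools 1.3.1, StringTie, edgeR and mm10. The sources used here do not say whether counting used strand. Gene types were joined from GENCODE M21, whose spans equal those of the table for 99.4% of identifiers. Counts were tested with edgeR 4.0.16 in R 4.3.3 (TMM scaling, filterByExpr by group with a minimum count of 10, quasi-likelihood F test, no covariate), with Benjamini-Hochberg adjustment over 16310 genes at 0.05. SE is the log2 fold change divided by the root of F. Deposited FPKM served to compare levels between genes and for the sums and shares of members in each library. These sums are without TMM scaling. A floor of 3 counts was 0.163 to 0.195 CPM per library.

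The members and gene lists were chosen with earlier results of these data known. All values were given for tested members whose mean reached 5 CPM and for the 10 with the smallest unadjusted p. Values of 1 member and of some other genes are not reported here, though totals and counts include them. For other members counts were given, with fold changes where a partner was described, of which Ccl7, Ccl24, Ccl20, Cxcr3, Ccl3, Ccl12 and Cxcr2 were chosen after their values were seen. Of other lists, the 3 genes with the smallest unadjusted p and, for markers, the 2 with the highest CPM could be named, and S100a8, Csf1r, Itga2b and Ifng were added after their values were seen. Promoter windows were taken from RefSeq by symbol, with 48 of 64 matched, and searched on both strands. Alternatives were DESeq2 size factors, library totals, a fit by DESeq2 1.42.0 or limma-voom 3.58.1, filtering at 5 CPM on average or not at all, a replicate block and each library left out. The scripts were tested on simulated counts.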

Additional observations from a re-analysis of the deposited data

How the results depend on the processing

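With 2 mice per group, 0 genes passed by edgeR, and counts of calls over all genes depended on tool and library: DESeq2 called 63 higher and 85 lower, library totals and limma-voom each 1 lower, and leaving out 1 library 0 to 209 higher and 0 to 200 lower, with both maxima without wild type replicate 1. The labels share replicate numbers but do not say that these mark a shared litter or day. Over all tested genes, the difference between replicates 1 and 2 of wild type correlated at 0.12 with that of knockout. A replicate block gave 2 genes higher and 2 lower and 0 members. Members called higher were 0 under every alternative run. Members called lower were 2 with DESeq2 and 0 to 3 when a library was left out. The 3 appeared without wild type replicate 1: Ppbp (-5.02, edgeR), Pf4 (-3.06) and Cxcl3 (-4.26). That fit set wild type replicate 2 alone against the knockout libraries, so these calls rest on 1 wild type mouse. Wild type replicate 2 had 216 Ppbp, 788 Pf4 and 65 Cxcl3 counts, against 15, 358 and 4 in wild type replicate 1. Cxcl3 reached the filter level in no other library. The member median of -0.16 became 0.00 over 64 members without a filter and -0.37 to -0.03 with a library left out. Of 310 recomputed fold changes of 29 members, 5 turned in sign. The alternatives reused the same libraries, and members whose groups do not overlap could hardly turn, so this count does not measure stability. The values that turned were Ccr2 (-0.17) and Cxcl14 (0.34) without wild type replicate 2 and Cxcl14 (0.65) without knockout replicate 1. The others were Cx3cr1 (0.44) without wild type replicate 1 and Cxcl12 (-0.06) without knockout replicate 2. With a library left out, Ccr2 thus ranged from -0.17 to 1.32, Cx3cr1 from -0.94 to 0.44, Cxcl12 from -0.06 to 0.47 and Cxcl14 from -2.43 to 0.65. The cause was not tested. The median of all genes was -0.01 with DESeq2 size factors and -0.02 with library totals.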
